A study of Danio rerio with 12 samples.

Results

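The change between 6 hours and 7 days after amputation was measured in the heart ventricle of adult zebrafish of the AB strain that had been given TCDD. The comparison uses 4 of the 12 arrays of the series, chosen by their sample titles: 2 of TCDD fish at 7 days post amputation (7 dpa) against 2 of TCDD fish at 6 hours post amputation (6 hpa). All 4 carry RNA of fish injected into the body cavity with TCDD at 70 ng/g 1 day before the tip of the ventricle was cut off. The comparison is thus one of time within treated fish. Time since amputation and time since the dose cannot be told apart in it. Only the lower piece of each ventricle was used, which holds the plane of amputation and the regenerate, and each array received RNA pooled from 10 hearts. Values of TCDD fish whose hearts were not amputated (TCDD 0 hpa, 2 arrays) are given beside them for some genes. So are those of controls at 6 hpa and 7 dpa (2 arrays each). The TCDD 0 hpa hearts, like those at 6 hpa, were taken sooner after the dose than the 7 dpa hearts. The labels list the controls as having no treatment, while the protocol describes a vehicle injection. Nothing in the labels says whether pools of 1 group came from separate clutches or days, and the p-values measure only the spread between these pools.

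The zebrafish heart replaces ventricular muscle lost to amputation. A clot first seals the wound, blood leukocytes enter it, the epicardium (the outer cell layer of the heart) is activated and lays down matrix, and heart muscle cells at the wound border divide and fill the gap. TCDD, a dioxin, binds the AHR (aryl hydrocarbon receptor), a ligand-activated transcription factor that turns on the cytochrome P450 gene cyp1a, and the series was made to find how it affects this regeneration.

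Levels are log2 of the array intensity, on which 1 unit is a doubling, and changes are TCDD 7 dpa minus TCDD 6 hpa with limma's standard error after ±. The labelled tissue carried its defining markers: the cardiac muscle genes myl7 and tnnt2a lay at 12.32 to 12.65 and at 11.29 to 12.06 on the 4 arrays. TCDD 6 hpa replicate 1 stood apart. It correlated with its partner at r = 0.901 across probe sets, against 0.958 to 0.979 within the other groups, and the level under which 99 percent of its probe sets lay was 9.88, where the other arrays had 10.41 to 10.64. The 3′ minus 5′ difference of its actin control, which grows when RNA is degraded, was 3.35, against 0.63 on TCDD 6 hpa replicate 2, 1.42 and 1.29 on the TCDD 7 dpa arrays and between 1.36 and 2.07 on replicate 1 of the other groups. That of its gapdh control was 1.12, within the 0.52 to 1.96 of the other arrays. On 1826 probe sets it lay more than 1 unit below its partner and on 580 more than 1 unit above. Counts, and many of the values that it changes, are therefore given also without it. A value given with all arrays only may move as well. Without replicate 1 TCDD 6 hpa is 1 array, which is assumed to vary like the other groups.

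More probe sets were called higher at 7 dpa than lower, although over all probe sets the median change was −0.04. Of 15502 probe sets 881 (5.68%) were called at a limma adjusted p below 0.05, among 3471 with an unadjusted p under 0.05. There were 670 rises (4.32%), and 211 fell (1.36%). With quantile normalization the split was 767 rises to 400 falls. A total of 280 rises and 80 falls were of at least 2 log2 units, and 48 rises and 5 falls of at least 4. The arrays of the groups did not overlap for any of the 881; over all probe sets both 7 dpa arrays lay above both 6 hpa arrays in 22.1% and below both in 24.3%. In 317 of the rises the 6 hpa mean, and in 107 of the falls the 7 dpa mean, lay under a log2 intensity of 4, close to the median of an array. As there are no detection calls, the size of these changes is uncertain.

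There were 360 rises (2.32%) and 193 falls (1.25%) without TCDD 6 hpa replicate 1. Of these 345 rises and 109 falls were also called with all arrays, and no called change turned its sign. Each of the other 3 arrays moved the counts as well. Leaving out TCDD 6 hpa replicate 2, the array like the others, gave 1661 rises and 1341 falls; without TCDD 7 dpa replicate 1 there were 211 and 40, and without TCDD 7 dpa replicate 2 there were 475 and 79. Of 101 calls for the genes picked by the naming rule, which itself asked of the largest changes that they pass without TCDD 6 hpa replicate 1, 98 were kept without its partner, 45 without TCDD 7 dpa replicate 1 and 67 without TCDD 7 dpa replicate 2.

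**Figure D1:**
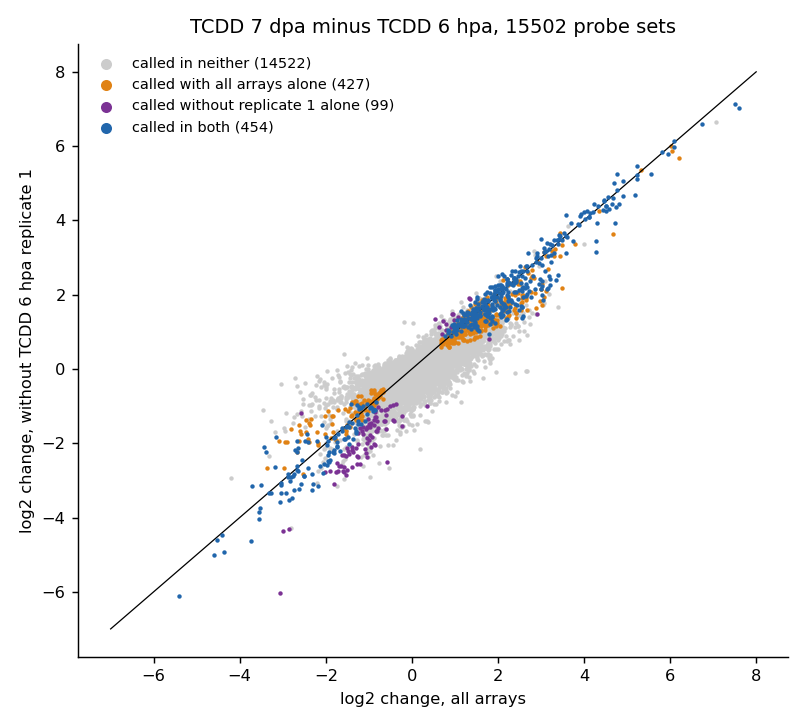
Each point is 1 of 15502 probe sets, with its log2 change from TCDD 6 hpa to TCDD 7 dpa in the fit of all arrays (x axis) and without TCDD 6 hpa replicate 1 (y axis); the line marks equal values. The 454 probe sets called in both (blue) have the same sign in each, the 427 called with all arrays alone (orange) include many rises that lie under the line, and 99 were called only without the replicate (purple).

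The largest rise was that of a keratin gene. This gene, krt91, lay at 2.94 and 4.12 on the 6 hpa arrays and at 11.47 and 10.83 on the 7 dpa arrays. It rose by 7.61 ± 0.77 (adjusted p = 0.000983; 7.02 without replicate 1), and its level in unamputated TCDD ventricles, 5.34, lay between the times. The gene apoeb, which encodes apolipoprotein E, a lipid carrier made by macrophages among other cells, lay at 3.54 and 3.8 and then at 9.79 and 9.76. It rose by 6.10 ± 0.75 (adjusted p = 0.00262; 5.97 without replicate 1). The gene aqp3a, for a channel for water and glycerol, lay at 2.7 and 2.61 and then at 8.86 and 8.63, a rise of 6.09 ± 0.52. For these genes the TCDD pools of 1 time lay within 1.2 units of each other, several units from those of the other time. In controls krt91, apoeb and aqp3a rose by 3.98, 3.86 and 2.77 over the same interval. The control 7 dpa pools lay further apart, at 7.38 and 10.13 for krt91, 6.58 and 9.41 for apoeb and 5.30 and 7.16 for aqp3a. None of these genes passed the test of a difference between treatments.

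The gene ca2 encodes carbonic anhydrase 2, which interconverts carbon dioxide and bicarbonate. It lay at 2.81 and 3.12 at 6 hpa, at 9.19 and 8.65 at 7 dpa and at 2.64 in unamputated TCDD ventricles. Its rise of 5.96 ± 0.22 had the smallest adjusted p of the named genes (1.16e-05; 5.80 without replicate 1), while its other probe set, at 3.35 to 4.32 on the 4 arrays, changed by 0.10 and did not pass. The keratin gene krt17 lay at 2.51 and 2.48 and then at 7.69 and 8.92, and rose by 5.81 ± 0.87. The others of the 14 largest rises were postnb, col1a1a, col1a2 and sparc (matrix), krt15 (5.19 ± 0.41) and krt4 (4.75 ± 0.42) (keratins), lgals3bp.1, a galectin binding protein (4.91 ± 0.36), mdka, the heparin-binding growth factor midkine (4.81 ± 0.26), and cygb1, the globin cytoglobin (4.77 ± 0.56, and 4.46 by its other probe set). All 14 passed without TCDD 6 hpa replicate 1 by the rule that chose them, and leaving out any of the other 3 TCDD arrays kept their calls as well.

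**Figure D2:**
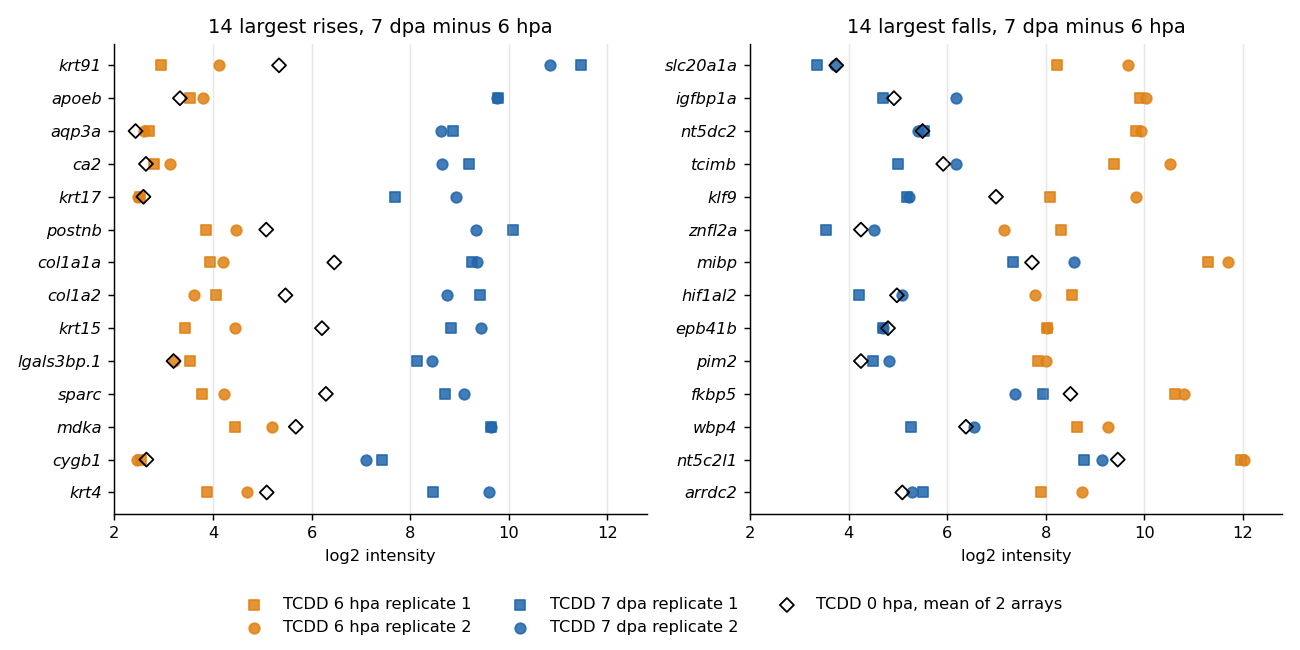
The log2 intensity (x axis) of the 14 genes with the largest rises and the 14 with the largest falls on each TCDD array at 6 hpa (orange) and 7 dpa (blue), with the mean of the unamputated TCDD arrays (open diamonds). At 7 dpa both arrays of krt91 lie above 10 and at 6 hpa both lie under 5, and slc20a1a lies at 8.23 and 9.66 at 6 hpa and under 4 at 7 dpa.

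Genes high at 6 hpa and low at 7 dpa were led by a phosphate transporter gene. That gene, slc20a1a, lay at 8.23 and 9.66 at 6 hpa, at 3.35 and 3.72 at 7 dpa and at 3.75 in unamputated TCDD ventricles. It fell by 5.41 ± 0.53 on the log2 scale (adjusted p = 0.000814; −6.12 without replicate 1). The gene igfbp1a, for a secreted binding protein of insulin-like growth factors, lay at 9.91 and 10.03 and then at 4.70 and 6.17. Its change was −4.54 ± 0.46, and −3.56 by its other probe set, and the unamputated level was 4.92. The levels of nt5dc2, which encodes a protein with a nucleotidase domain, were 9.83 and 9.93 and then 5.53 and 5.40, with 5.50 before amputation (−4.42 ± 0.37). For each of these the level at 7 dpa lay near that of the unamputated ventricles. In controls slc20a1a, igfbp1a and nt5dc2 changed by −5.43, −3.34 and −3.19 over the same interval.

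Further falls were those of tcimb (−4.36 ± 0.46), znfl2a (−3.72 ± 0.54), mibp (−3.54 ± 0.41), hif1al2, a relative of the hypoxia-inducible factors (−3.51 ± 0.45), the kinase gene pim2 (−3.27 ± 0.44), wbp4, for a splicing protein (−3.04 ± 0.56), the nucleotidase gene nt5c2l1 (−3.04 ± 0.46) and arrdc2 (−2.92 ± 0.54, and −0.89 by its other probe set). The gene klf9 encodes a zinc finger transcription factor that glucocorticoids induce, and fkbp5 an immunophilin that binds the glucocorticoid receptor complex. The first lay at 8.09 and 9.83 and then at 5.19 and 5.22 (−3.75 ± 0.50), below its unamputated level of 6.99. The change of klf9 from the unamputated level to 7 dpa, −1.78, did not pass (limma adjusted p = 0.131). The second gene, fkbp5, lay at 10.62 and 10.80 and then at 7.95 and 7.38 (−3.04 ± 0.48). Without TCDD 7 dpa replicate 1 the calls of znfl2a, wbp4, nt5c2l1 and arrdc2 were lost (adjusted p = 0.0646, 0.126, 0.0734 and 0.106), and without TCDD 7 dpa replicate 2 those of fkbp5 and arrdc2 (adjusted p = 0.0534 and 0.0843).

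Genes were next read by list, on the probe set with the highest mean of each gene. Over the 8793 genes measured 5.54% rose and 1.27% fell (6.81% in all), with a median change of 0.01; without TCDD 6 hpa replicate 1 these were 2.82% and 1.34% (4.16% in all). Both 7 dpa arrays lay above both 6 hpa arrays for 25.4% of genes and below both for 22.1%. The shares below are to be read against these. In pooled tissue a change in the number of cells of a type cannot be told apart from a change in RNA per cell.

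**Figure D3:**
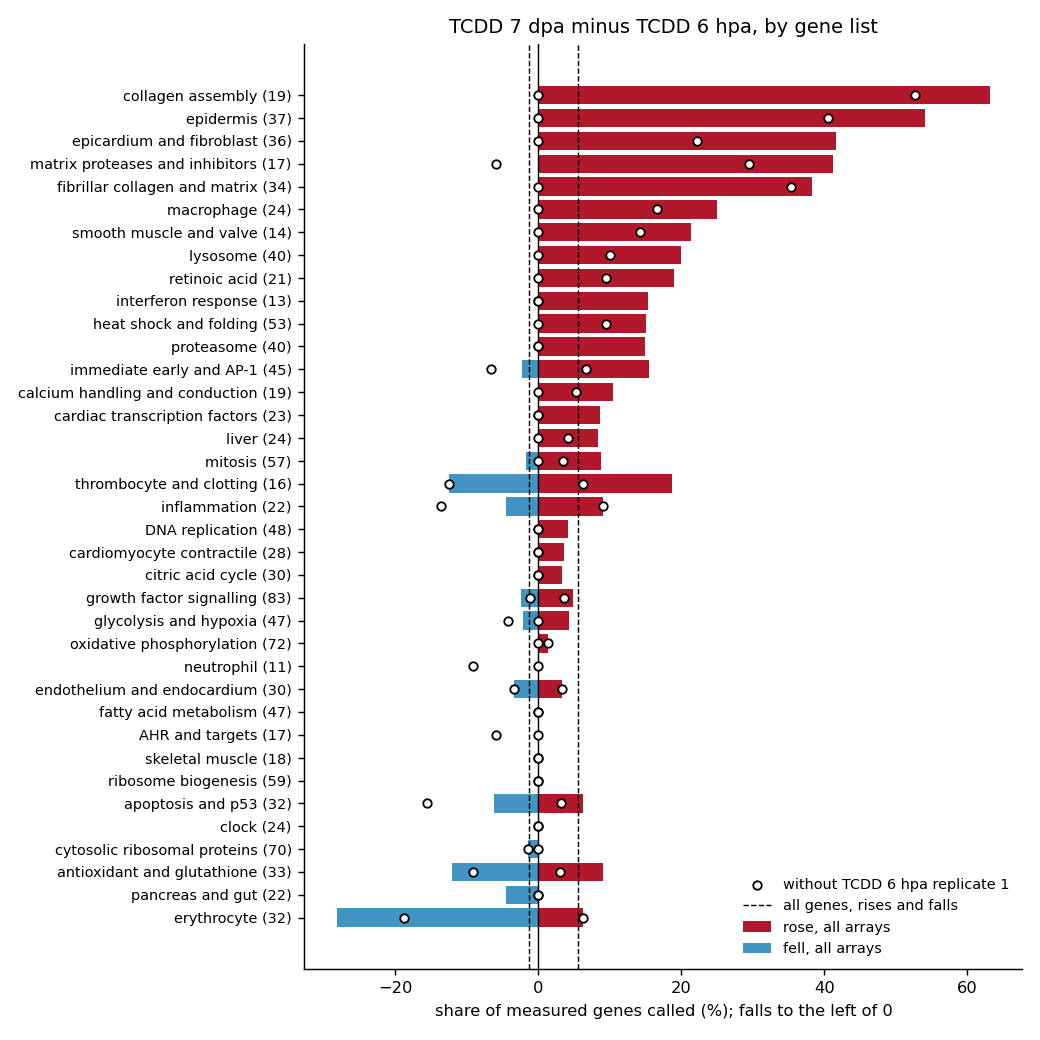
For each gene list (number of measured genes in parentheses) the share of genes that rose (red, to the right of 0) and fell (blue, to the left) from TCDD 6 hpa to TCDD 7 dpa, in percent, with open circles for the shares without TCDD 6 hpa replicate 1 and dashed lines for all genes (5.54% and 1.27%). Collagen assembly (12 of 19 rose) and epidermis (20 of 37 rose) have the largest shares of rises, and erythrocyte (9 of 32 fell) the largest share of falls.

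Matrix genes rose in number. Of 34 genes for fibrillar collagens and other matrix proteins 13 rose and none fell (median 1.13), and 12 rose without TCDD 6 hpa replicate 1 (median 1.03). Type I collagen is the main fibre of scar matrix, and its genes col1a1a and col1a2 went from low to high levels. The first went from 3.93 and 4.20 to 9.26 and 9.36 (5.24 ± 0.36, adjusted p = 0.000135, and 4.77 by its other probe set). The second went from 4.02 and 4.0 to 9.19 and 9.28 (5.23 ± 0.32, and 5.24 by the other). Their unamputated levels in TCDD ventricles, 6.46 and 6.38, lay above those at 6 hpa and below those at 7 dpa. The gene postnb, for periostin, a matrix protein of injured and developing tissue, lay at 3.86 and 4.46 and then at 10.08 and 9.34 (5.55 ± 0.40; 4.66 by its other probe set). The gene sparc, for a collagen-binding glycoprotein, lay at 3.78 and 4.23 and then at 8.71 and 9.09 (4.90 ± 0.33). In controls col1a1a, col1a2, postnb and sparc rose by 5.34, 5.50, 5.58 and 4.21 over the same interval.

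Fibronectin is an adhesive protein of provisional matrix, and zebrafish have genes fn1a and fn1b for it. The level of fn1a was 3.71 and 3.64 at 6 hpa and 7.66 and 7.43 at 7 dpa, a rise of 3.87 ± 0.23 (adjusted p = 5.91e-05; 3.91 without replicate 1). Its other probe sets changed by 0.02 and −0.53 and did not pass. For fn1b the levels were 4.44 and 6.09 and then 9.41 and 9.67, a rise of 4.27 ± 0.43 (3.45 without replicate 1), and its unamputated level of 6.72 was higher than at 6 hpa. The lower level of fn1b at 6 hpa than in unamputated TCDD ventricles, a change of −1.45, did not pass (adjusted p = 0.125). Before amputation fn1a, at 3.20, was near the median of an array.

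Genes that process and assemble collagen rose too, 12 of 19, with none falling; all 19 changes were above 0, also without TCDD 6 hpa replicate 1, where 10 rose (median 1.2, and 1.51 without it). The prolyl isomerase gene fkbp9 lay at 3.73 and 3.59 and then at 6.69 and 5.79 (2.58 ± 0.26). The isomerase gene ppib changed by 2.56 ± 0.48 (1.66 without replicate 1), pcolcea, an enhancer of procollagen cleavage, by 2.37 ± 0.34, and serpinh1b, the collagen chaperone, by 1.93 ± 0.30. All of these were called with and without that array. Without TCDD 7 dpa replicate 1 the calls of ppib, pcolcea and serpinh1b were lost (adjusted p = 0.0945, 0.0587 and 0.0588), and without TCDD 7 dpa replicate 2 that of ppib (adjusted p = 0.0881).

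Of 17 matrix proteases and their inhibitors 7 rose and none fell, and without TCDD 6 hpa replicate 1 there were 5 rises and 1 fall. The gene ctsk, for the collagen-degrading protease cathepsin K, lay at 3.74 and 4.48 and then at 8.61 and 8.22 (4.30 ± 0.37, adjusted p = 0.000409). The membrane-bound metalloproteinase gene mmp14b lay at 4.0 and 3.87 and then at 7.36 and 6.68 (3.08 ± 0.28). The gelatinase gene mmp2 rose by 2.90 ± 0.30 (4.33 by its other probe set), and the inhibitor gene timp2a by 2.64 ± 0.52 with all arrays; the latter lost its call without TCDD 6 hpa replicate 1 (1.86, adjusted p = 0.0736) and without TCDD 7 dpa replicate 1 (adjusted p = 0.17).

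The secreted proteases mmp13a and mmp9 did not pass with all arrays. The collagenase gene mmp13a lay at 8.25 and 11.12 at 6 hpa and at 6.76 and 6.88 at 7 dpa, against 6.58 before amputation. Its change of −2.86 ± 0.85 did not pass (adjusted p = 0.0901), and without TCDD 6 hpa replicate 1 it was −4.30 and passed (adjusted p = 0.0116). The gelatinase gene mmp9 lay at 7.58 and 10.42 and then at 8.22 and 7.95. Its 7 dpa arrays lay between its 6 hpa arrays, and its change of −0.91 ± 0.80 did not pass (adjusted p = 0.533; −2.33 and adjusted p = 0.0649 without replicate 1; 0.50 without replicate 2). Both 7 dpa levels of mmp9 were above the unamputated 4.75, but this change of 3.33 did not pass (limma adjusted p = 0.0773). In controls mmp9 changed by −4.66 and mmp13a by −5.94 over the same interval, and neither passed the test of a difference between treatments.

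Genes of the epicardium and of fibroblasts formed a further group of rises, 15 of 36 with none falling (median 1.65), and 8 without TCDD 6 hpa replicate 1 (median 1.17). The growth factor gene mdka lay at 4.45 and 5.2 and then at 9.64 on both 7 dpa arrays (4.81 ± 0.26, adjusted p = 5.2e-05). The secreted chaperone gene clu, for clusterin, lay at 3.05 and 3.33 and then at 7.48 and 7.95 (4.52 ± 0.40), and tagln, for an actin-binding protein of smooth muscle and activated fibroblasts, at 4.28 and 4.23 and then at 7.97 and 8.59 (4.02 ± 0.46). The list also holds krt4, which epithelia express. Neither of the 2 epicardial markers measured, tbx18 and aldh1a2, was called. The first stayed at 2.77 to 3.23 on the 4 arrays (0.14, adjusted p = 0.731). The epicardial gene aldh1a2, which encodes the enzyme that makes retinoic acid, lay at 6.02 and 7.70 and then at 9.06 and 9.35. Its groups do not overlap, but the change of 2.34 ± 0.59 did not pass (adjusted p = 0.0554; 1.5 and adjusted p = 0.233 without replicate 1).

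Of 14 genes of smooth muscle and valve, 3 rose, and 2 of them without TCDD 6 hpa replicate 1. The 3 were tagln, the calponin gene cnn3a (3.18 ± 0.47; 2.49 without replicate 1) and the adhesion molecule gene alcama (1.54 ± 0.26). The call of alcama was lost without TCDD 6 hpa replicate 1 (1.33, adjusted p = 0.0532), and those of alcama and cnn3a without TCDD 7 dpa replicate 1 (adjusted p = 0.0953 and 0.0587).

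Epidermal genes were the group with the highest median. Of 37 genes for epidermal keratins, junction and envelope proteins 20 rose and none fell (median 3.02), and without TCDD 6 hpa replicate 1 15 rose (median 2.09). The median level of the list was 3.42 and 3.32 on the 6 hpa arrays, 7.34 and 6.42 on the 7 dpa arrays and 2.91 in unamputated TCDD ventricles. Both 7 dpa arrays lay high. The second probe set of krt91, the brighter one, rose by 7.51 ± 0.69. For krt97 the levels were 3.42 and 3.37 and then 8.91 and 8.52, with a large standard error (5.32 ± 1.19, adjusted p = 0.0363), and the call was lost without TCDD 6 hpa replicate 1 (adjusted p = 0.116), without TCDD 7 dpa replicate 1 (adjusted p = 0.204) and without TCDD 7 dpa replicate 2 (adjusted p = 0.116).

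Of 8 markers of the epidermis, which lies outside the heart, 3 rose. They were krt4, icn (3.05, adjusted p = 0.0288, and 1.86 without TCDD 6 hpa replicate 1) and evpla (0.67, adjusted p = 0.0472). The levels of evpla, 2.32 and 2.24 and then 3.11 and 2.79, all lay below the median of their array. The call of icn was lost without TCDD 7 dpa replicate 1 or replicate 2 (adjusted p = 0.139 and 0.119), and that of evpla was lost without TCDD 6 hpa replicate 1, TCDD 6 hpa replicate 2 or TCDD 7 dpa replicate 1 (adjusted p = 0.114, 0.0611 and 0.265). The summed level of the 8 was 7.99 and 9.98 on the TCDD 6 hpa arrays, 12.36 and 12.60 at TCDD 7 dpa and 11.44 and 11.96 at control 7 dpa. It was 9.78 and 9.92 in unamputated TCDD ventricles and 10.53 and 10.26 in unamputated controls. Most of the unamputated sum was icn, which lay at 9.65 and 9.80 in TCDD ventricles and at 10.35 and 10.07 in controls. The sum therefore does not measure epidermis alone. Unamputated ventricles also carried krt4, at 4.99 and 5.19 in TCDD fish and at 6.96 and 6.12 in controls. In controls krt4 rose by 3.60 from 6 hpa to 7 dpa. The keratin marker krt5 lay at 3.06 and 3.91 and then at 10.62 and 10.47, yet its change of 7.06 ± 1.82 did not pass (adjusted p = 0.059); the arrays of control 7 dpa, which enter its shared spread, lay at 2.67 and 9.60. The adhesion gene epcam lay at 3.75 and 4.97 and then at 8.33 and 8.37 (3.99, adjusted p = 0.101), and at 2.55 and 6.93 at control 7 dpa. The epidermal transcription factor gene tp63 stayed at 3.29 to 4.04 on the 4 arrays, near the median of an array. How far cells from outside the ventricle contributed to these levels was not tested.

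**Figure D4:**
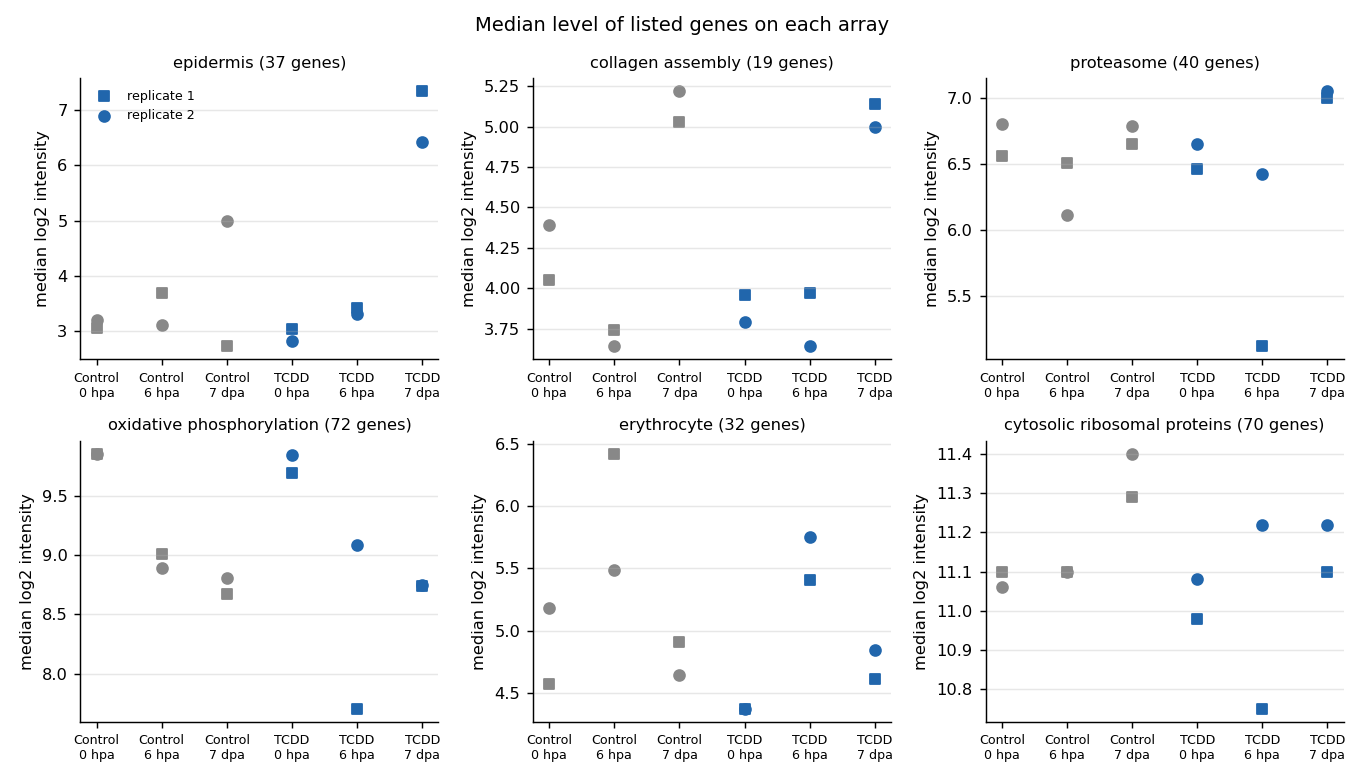
Median log2 intensity (y axis) over the genes of 6 lists on each of the 12 arrays, in control (grey) and TCDD fish (blue), squares for replicate 1 and circles for replicate 2. The epidermis list is high on both TCDD 7 dpa arrays (7.34 and 6.42), and for proteasome, oxidative phosphorylation and ribosomal protein genes TCDD 6 hpa replicate 1 is the lowest of all arrays.

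Macrophage genes were higher at 7 dpa: 6 of 24 rose and none fell (median 1.70), and 4 rose without TCDD 6 hpa replicate 1 (median 0.95). Besides apoeb, lgals3bp.1 lay at 3.54 and 3.21 and then at 8.13 and 8.44 (4.91 ± 0.36, adjusted p = 0.00019). The growth factor gene grna, for a progranulin, lay at 2.81 and 3.60 and then at 7.24 and 6.03 (3.43 ± 0.61). The gene of the lysosomal protease cathepsin S, ctss2.2, changed by 3.03 ± 0.47, and by 1.92 in its other probe set, which did not pass (adjusted p = 0.0702). In controls apoeb, lgals3bp.1, grna and ctss2.2 rose by 3.86, 5.99, 3.37 and 4.18 over the same interval. Without TCDD 6 hpa replicate 1 the call of grna was lost (3.04, adjusted p = 0.0719), and without TCDD 7 dpa replicate 1 those of grna and ctss2.2 (adjusted p = 0.125 and 0.0712). The summed level of the 3 macrophage markers measured was 5.42 and 6.27 at 6 hpa and 8.23 and 7.56 at 7 dpa. Of these only c1qc was called, close to the threshold (2.39, adjusted p = 0.0486, and 2.07 without TCDD 6 hpa replicate 1). The change of marco, 2.0 (1.22 without TCDD 6 hpa replicate 1), did not pass (adjusted p = 0.144). The receptor gene csf1ra stayed at 2.91 to 3.41 on the 4 arrays and did not pass either (0.23, adjusted p = 0.485).

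Of 11 neutrophil genes none rose and none fell (median 0.22), and without TCDD 6 hpa replicate 1 there was 1 fall, that of mmp13a (median −0.59). The smallest p-values with all arrays were those of s100a10b (2.13, adjusted p = 0.0797; 1.01 without replicate 1) and ncf4, a subunit of the oxidase that makes superoxide (−0.83, adjusted p = 0.0762; −0.59 without replicate 1). The median level of this list was 4.60 and 7.56 on the 6 hpa arrays, which thus lay on both sides of 6.76 and 7.48 at 7 dpa. Neither of the neutrophil markers measured, lyz and mpx, was called, and their pools differed widely. The first lay at 4.71 and 9.40 and then at 6.98 and 7.50 (0.18, adjusted p = 0.953), and changed by −2.16 without TCDD 6 hpa replicate 1. For mpx the levels were 3.77 and 5.03 and then 4.20 and 8.11 (1.76, adjusted p = 0.396). Among 22 inflammation genes 2 rose and 1 fell, and without TCDD 6 hpa replicate 1 there were 2 rises and 3 falls (median −0.01 and −0.15). The inflammasome adaptor gene pycard lay at 2.92 and 2.48 and then at 6.25 and 6.55 (3.70 ± 0.22, adjusted p = 6.05e-05), and saa, for an acute phase protein, rose by 2.37 ± 0.34; pim2 fell. The call of saa was lost without TCDD 7 dpa replicate 1 (adjusted p = 0.058). Of 13 interferon response genes psmb9a, an immunoproteasome subunit (1.76 ± 0.34), and gbp1, a guanylate binding protein (1.69 ± 0.40), rose with all arrays, and no gene of the list was called without TCDD 6 hpa replicate 1 (adjusted p = 0.0782 and 0.197 for psmb9a and gbp1). Neither of them was called without TCDD 7 dpa replicate 1 (adjusted p = 0.109 and 0.242) or TCDD 7 dpa replicate 2 (adjusted p = 0.0995 and 0.115).

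Lysosomal genes were called in 8 of 40 (median 0.71), all rises, and in 4 without TCDD 6 hpa replicate 1 (median 0.21). They include ctsk, grna and ctss2.2 and the protease gene ctsc, which lay at 3.98 and 5.70 and then at 8.19 and 7.48 (2.99 ± 0.61). The call of ctsc was lost without TCDD 6 hpa replicate 1 (2.14, adjusted p = 0.101) and without either 7 dpa array (adjusted p = 0.187 without replicate 1 and 0.0665 without replicate 2).

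Immediate early genes, which cells switch on within minutes of a stimulus, split: 7 of 45 rose and klf9 fell. The flow-responsive factor gene klf2a lay at 3.28 and 5.04 and then at 6.88 and 7.48 (3.01 ± 0.53; 2.14 without replicate 1), and ccn2a, for a connective tissue growth factor, at 5.06 and 6.38 and then at 8.17 and 8.44 (2.59 ± 0.39). The gene zfp36l1a, whose product destabilises messenger RNAs, lay at 4.63 and 5.81 and then at 7.85 and 7.76 (2.59 ± 0.48). Without TCDD 6 hpa replicate 1 the list had 3 rises and 3 falls, its median was −0.08 in place of 0.45, and zfp36l1a lost its call (adjusted p = 0.073). The calls of klf2a and zfp36l1a were lost without TCDD 7 dpa replicate 1 (adjusted p = 0.0657 and 0.117) and without TCDD 7 dpa replicate 2 (adjusted p = 0.0779 and 0.0714).

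Genes of cell division were called at shares near those of all genes. Of 48 DNA replication genes 2 rose and none fell, and none was called without TCDD 6 hpa replicate 1. The gene pcna, for the sliding clamp of DNA polymerase, lay at 5.29 and 5.84 and then at 7.27 and 7.22 (1.68 ± 0.29, adjusted p = 0.0134), with 5.94 before amputation. The nucleotide pool enzyme gene dut rose by 1.29 ± 0.28. The replicative helicase gene mcm5 stayed near the median of an array, at 3.60 and 3.32 and then at 3.57 and 3.84 (0.25, adjusted p = 0.458; 0.39 without TCDD 6 hpa replicate 1). Without TCDD 6 hpa replicate 1 the changes of pcna and dut were 1.40 and 1.15 (adjusted p = 0.0635 and 0.133), without TCDD 7 dpa replicate 2 their adjusted p was 0.0583 and 0.131, and without TCDD 7 dpa replicate 1 that of pcna was 0.101.

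Of 57 mitosis genes 5 rose and 1 fell, and 2 rose without TCDD 6 hpa replicate 1. The importin gene kpna2 rose by 1.64 ± 0.22 (1.70 without it), and its call was kept without any of the 4 arrays. The cyclin gene ccnd1 rose by 1.2 ± 0.23 and the chromatin protein gene hmgb2b by 1.72 ± 0.32; without TCDD 6 hpa replicate 1 their adjusted p was 0.071 and 0.0715, and without TCDD 7 dpa replicate 1 it was 0.119 and 0.133. The other probe set of ccnd1 rose by 1.52, and that of hmgb2b changed by 1.43 and did not pass (adjusted p = 0.117). The kinesin gene kif20a lay at 11.33 and 9.44 and then at 7.12 and 7.84 (−2.91 ± 0.69, adjusted p = 0.045), a fall that was not called without TCDD 6 hpa replicate 1 (−1.96, adjusted p = 0.192), TCDD 7 dpa replicate 1 (adjusted p = 0.266) or TCDD 7 dpa replicate 2 (adjusted p = 0.101), nor by its other probe set (−0.23).

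Calls among heart muscle genes were too few to compare with the 6.81% called over all genes. Of 28 contractile genes of cardiomyocytes 1 rose, flncb, an actin crosslinker (1.33 ± 0.29), and none fell (median 0.24, and 0.01 without TCDD 6 hpa replicate 1). Its call was lost without TCDD 6 hpa replicate 1 (1.47, adjusted p = 0.0729), TCDD 6 hpa replicate 2 (adjusted p = 0.0509) or TCDD 7 dpa replicate 1 (adjusted p = 0.214). The summed level of the cardiomyocyte markers was 13.75 and 14.11 at 6 hpa and 14.16 and 13.87 at 7 dpa. Among 19 calcium handling and conduction genes asph, a calcium-binding protein of the reticulum (2.38 ± 0.38, and 2.44 without replicate 1), and atp1b2a, a sodium pump subunit (0.99 ± 0.20), rose. Another probe set of atp1b2a also rose by 0.99 (adjusted p = 0.0338). Its remaining probe sets changed by −0.28 and −0.05 and did not pass (adjusted p = 0.461 and 0.902). Without TCDD 6 hpa replicate 1 the call of atp1b2a was lost (adjusted p = 0.098), and without TCDD 7 dpa replicate 1 both were (adjusted p = 0.0813 for asph and 0.177 for atp1b2a).

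Of 23 cardiac transcription factor genes 2 were called, and none without TCDD 6 hpa replicate 1. The gene gata5 lay at 5.39 and 6.16 and then at 7.54 and 7.10 (1.54 ± 0.35, adjusted p = 0.0378), against 7.99 in unamputated TCDD ventricles, and foxc1b rose by 0.76 ± 0.19 (adjusted p = 0.0496). The call of each was lost without TCDD 6 hpa replicate 1 (adjusted p = 0.173 and 0.142), TCDD 7 dpa replicate 1 (adjusted p = 0.24 and 0.0621) or TCDD 7 dpa replicate 2 (adjusted p = 0.0794 and 0.183), and that of foxc1b also without TCDD 6 hpa replicate 2 (adjusted p = 0.056). The gene hand2 lay at 6.43 and 7.23 and then at 8.82 and 7.87 and did not pass (1.52, adjusted p = 0.059). Neither gata4 (−0.59; −0.26 without TCDD 6 hpa replicate 1) nor tbx20 (−0.26; −0.10), both near the median of an array, passed.

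For oxidative phosphorylation genes the sign of the median change turned when TCDD 6 hpa replicate 1 was left out. The median level of the 72 genes was 7.70 and 9.09 on the 6 hpa arrays and 8.74 and 8.75 on the 7 dpa arrays, against 9.83 in unamputated TCDD ventricles. With all arrays 66 of the 72 changes were above 0 (median 0.38), and without replicate 1 there were 8 (median −0.35). In both fits 1 gene rose, the cytochrome oxidase subunit gene cox6a1, which lay at 4.98 and 6.77 and then at 8.10 and 8.77 (2.56 ± 0.50; 1.67 without replicate 1); its call was lost without TCDD 7 dpa replicate 1 (adjusted p = 0.0777) and without TCDD 7 dpa replicate 2 (adjusted p = 0.109).

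The citric acid cycle list likewise had a median of 0.36 with all arrays and −0.16 without TCDD 6 hpa replicate 1, and 1 of 30 genes rose, idh1, for isocitrate dehydrogenase (1.76 ± 0.34), which was not called without it (1.33, adjusted p = 0.0827), without TCDD 7 dpa replicate 1 (adjusted p = 0.135) or without TCDD 7 dpa replicate 2 (adjusted p = 0.0714). None of 47 fatty acid metabolism genes was called in either fit; the smallest p-values were those of acaca (0.65) and scd (−0.72; −0.35 without replicate 1). Of 47 genes of glycolysis and the hypoxia response, gpia (1.33 ± 0.31) and eno1a (0.94 ± 0.21), both glycolytic enzymes, rose with all arrays and igfbp1a fell (median 0.28); without TCDD 6 hpa replicate 1 none rose and 2 fell (median 0.10). The rises of gpia and eno1a were not called without TCDD 6 hpa replicate 1 (adjusted p = 0.18 and 0.165), TCDD 7 dpa replicate 1 (adjusted p = 0.123 and 0.159) or TCDD 7 dpa replicate 2 (adjusted p = 0.167 and 0.13). The hypoxia-inducible factor gene epas1b lay at 4.18 and 4.95 and then at 6.21 and 4.75, with overlapping groups, and did not pass (0.91, adjusted p = 0.299; 0.53 without replicate 1); its unamputated level was 6.95.

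The list of red blood cell genes held the largest share of falls. Of 32 genes 9 fell and 2 rose (median −0.76), and 6 fell and 2 rose without TCDD 6 hpa replicate 1 (median −0.71). The gene of the membrane skeleton protein epb41b lay at 8.03 on both 6 hpa arrays and at 4.69 and 4.70 at 7 dpa (−3.33 ± 0.46, adjusted p = 0.00484). The blood transcription factor gene tal1 lay at 4.95 and 6.32 and then at 2.81 and 2.89 (−2.78 ± 0.50; −3.47 without replicate 1). Unamputated TCDD ventricles had 4.80 and 2.69 of these. The alpha globin gene hbaa1 lay at 13.55 and 13.33 and then at 12.60 and 12.77 (−0.76, adjusted p = 0.0388). Its change without TCDD 6 hpa replicate 1 was −0.65 and was not called. The summed level of the 3 erythrocyte markers was 13.78 and 13.47 and then 12.68 and 12.86, and most of it was hbaa1. The other markers, alas2 (−1.91, adjusted p = 0.221) and slc4a1a (−1.95, adjusted p = 0.0994), were not called. The calls of tal1 and hbaa1 were lost without TCDD 7 dpa replicate 1 (adjusted p = 0.111 and 0.217) and without TCDD 7 dpa replicate 2 (adjusted p = 0.0677 and 0.0841).

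The rises of this list were ca2 and tfa, the gene of the iron carrier transferrin, neither of which is made in red cells alone. For tfa the levels were 3.33 and 3.87 and then 8.29 and 7.95 (4.52 ± 0.24, adjusted p = 5.2e-05), with 4.83 in unamputated TCDD ventricles. In controls tfa rose by 5.54 over the same interval. The liver list, which also holds tfa, had 2 rises among 24 genes, and 1 without TCDD 6 hpa replicate 1; the other was rbp4, for the plasma retinol carrier, at 4.35 and 6.45 and then at 7.75 and 7.88 (2.41 ± 0.56), which was not called without TCDD 6 hpa replicate 1 (1.36, adjusted p = 0.0617), TCDD 7 dpa replicate 1 (adjusted p = 0.19) or TCDD 7 dpa replicate 2 (adjusted p = 0.143). The summed level of the 4 liver markers was 5.27 and 4.94 and then 4.81 and 5.06.

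Of 16 genes of thrombocytes and clotting 3 rose and 2 fell, and 1 rose and 2 fell without TCDD 6 hpa replicate 1. The gene plaua, for urokinase, which turns plasminogen into plasmin, lay at 2.58 and 2.53 and then at 4.15 and 5.0 (2.02 ± 0.25, adjusted p = 0.00274). In controls plaua was 2.33 at 6 hpa and 2.38 at 7 dpa, and the difference between treatments did not pass. The platelet receptor gene gp1bb lay at 5.39 and 5.46 and then at 2.35 and 2.76 (−2.87 ± 0.39). The gene of the clotting inhibitor tfpia rose by 3.00 ± 0.55, and by 1.71 in its other probe set, and its call was lost without TCDD 6 hpa replicate 1 (2.16, adjusted p = 0.0539) and without TCDD 7 dpa replicate 1 (adjusted p = 0.135). Of 30 endothelial and endocardial genes klf2a rose and the water channel gene aqp1a.1 fell. The latter went from 7.64 and 8.44 to 6.23 and 6.17 (−1.84 ± 0.35, and −2.23 without TCDD 6 hpa replicate 1). Its call was lost without TCDD 7 dpa replicate 1 (−1.87) and without TCDD 7 dpa replicate 2 (−1.81). Neither endothelial marker measured was called: kdrl (0.59, limma adjusted p = 0.554, and −0.23 without TCDD 6 hpa replicate 1) and tie1 (−0.06, adjusted p = 0.888).

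Few genes of other neighbouring tissues were called, which does not show that such tissue was absent. The median level of the skeletal muscle list was 3.26 and 3.06 at 6 hpa. At 7 dpa its pools differed, at 2.69 and 4.09, and those of control 7 dpa lay at 2.76 and 4.27. The skeletal muscle marker mylpfa lay at 3.70 and 3.18 and then at 2.85 and 5.69 (0.83, adjusted p = 0.618). For pancreas and gut the list median was 3.54 and 3.37 and then 2.93 and 3.19, near the median of an array. Of 18 skeletal muscle genes none was called (myod1, 0.38; the creatine kinase gene ckma, which the heart also expresses, 0.67 and, without TCDD 6 hpa replicate 1, 0.21), and of 22 pancreas and gut genes 1 fell, the elastase gene ela2, from 4.93 and 4.66 to 3.20 and 3.56 (−1.41 ± 0.31). That call was lost without TCDD 6 hpa replicate 1 (adjusted p = 0.139), TCDD 7 dpa replicate 1 (adjusted p = 0.22) or TCDD 7 dpa replicate 2 (adjusted p = 0.0779).

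Chaperones and folding enzymes had 8 rises among 53 genes and no fall (median 0.73), and 5 rises without TCDD 6 hpa replicate 1 (median 0.33). The named members act in the endoplasmic reticulum, where secreted proteins fold: serpinh1b, the disulfide isomerase genes pdia3 (2.57 ± 0.52) and pdia4 (2.5 ± 0.39), and hsp90b1 (2.13 ± 0.35). For pdia4 the levels were 3.75 and 4.49 and then 6.78 and 6.47. The call of pdia3 was lost without TCDD 6 hpa replicate 1 (1.80, adjusted p = 0.0844). Without TCDD 7 dpa replicate 1 the calls of pdia3, pdia4 and hsp90b1 were lost (adjusted p = 0.127, 0.0749 and 0.0654), and without TCDD 7 dpa replicate 2 those of pdia3 and hsp90b1 (adjusted p = 0.105 and 0.0628).

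Proteasome genes were called in 6 of 40 with all arrays, all rises (median 1.18), and in none without TCDD 6 hpa replicate 1 (median 0.55, with 38 of 40 above 0). Their median level was 5.12 and 6.42 at 6 hpa and 7.00 and 7.05 at 7 dpa, against 6.62 in unamputated TCDD ventricles, so that replicate 1 was the low array. The named members were psmd4b (2.23 ± 0.45), psma8 (1.98 ± 0.42), psma4 (1.71 ± 0.35) and psmc6 (1.51 ± 0.36); without replicate 1 they changed by 1.66, 1.31, 1.15 and 0.86, with adjusted p = 0.0984, 0.082, 0.0755 and 0.101. Their adjusted p without TCDD 7 dpa replicate 1 was 0.172, 0.11, 0.147 and 0.244, and without TCDD 7 dpa replicate 2 it was 0.0633, 0.129, 0.0948 and 0.119.

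Of 70 cytosolic ribosomal protein genes 1 fell, rpsa, from 12.30 and 12.44 to 11.29 and 11.56 (−0.94 ± 0.18; −1.02 without replicate 1; adjusted p = 0.13 without TCDD 7 dpa replicate 1). None of 59 ribosome biogenesis genes was called in either fit; wdr12 (0.56) and wdr75 (0.69; 0.42 without replicate 1) had the smallest p-values.

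Genes of apoptosis and the p53 response had 2 rises and 2 falls among 32, and 1 rise and 5 falls without TCDD 6 hpa replicate 1 (median −0.40 and −0.52). The BH3-only death gene bbc3, a p53 target, lay at 5.11 and 6.94 and then at 3.83 and 3.56 (−2.33 ± 0.51; −3.25 without replicate 1), and the caspase gene casp9 at 5.0 and 4.78 and then at 3.87 and 3.77 (−1.07 ± 0.25). The sestrin gene sesn3 rose by 2.08 ± 0.35 (2.15 without replicate 1) and the death-associated kinase gene dapk3 by 2.86 ± 0.62. Without TCDD 6 hpa replicate 1 the calls of casp9 and dapk3 were lost (adjusted p = 0.175 and 0.136). Without TCDD 7 dpa replicate 1 those of bbc3, casp9, sesn3 and dapk3 were (adjusted p = 0.147, 0.184, 0.0735 and 0.215), and without TCDD 7 dpa replicate 2 those of bbc3, casp9 and dapk3 (adjusted p = 0.132, 0.152 and 0.0742).

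Antioxidant and glutathione genes went both ways, 3 rises and 4 falls among 33, and 1 rise and 3 falls without TCDD 6 hpa replicate 1. The glutathione transferase genes gstt1b (3.02 ± 0.54) and gsto2 (2.12 ± 0.44) rose with all arrays. The glutathione peroxidase gene gpx1a averaged 11.03 ± 0.03 at 6 hpa (SD, n = 2) and lay at 8.83 and 9.31 at 7 dpa (−1.96 ± 0.30), and txnipa, for an inhibitor of thioredoxin, at 9.75 and 10.35 and then at 8.18 and 8.05 (−1.93 ± 0.33). The falls of gpx1a and txnipa were also called without TCDD 6 hpa replicate 1 (−1.94 and −2.24), and the rises of gstt1b and gsto2 were not (adjusted p = 0.0572 and 0.12). Without TCDD 7 dpa replicate 1 the adjusted p of gstt1b, gsto2, gpx1a and txnipa was 0.115, 0.162, 0.0758 and 0.0756, and without TCDD 7 dpa replicate 2 that of gstt1b, gsto2 and txnipa was 0.0605, 0.0921 and 0.0615.

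Among 83 genes of growth factor signalling 4 rose and 2 fell, and 3 rose and 1 fell without TCDD 6 hpa replicate 1. The gene id1, a target of bone morphogenetic proteins, lay at 4.95 and 5.12 and then at 7.54 and 7.67 (2.57 ± 0.17, adjusted p = 9.75e-05), and dkk3b, of the dickkopf family of secreted proteins, at 4.09 and 4.13 and then at 6.42 on both arrays (2.31 ± 0.21). Both were called without each of the 4 arrays. The Wnt inhibitor gene notum1b rose by 1.33 ± 0.28, which was not called without TCDD 6 hpa replicate 1 (adjusted p = 0.117) or TCDD 7 dpa replicate 1 (adjusted p = 0.196). The chemokine gene cxcl12a, which guides vessels and leukocytes, lay at 4.42 and 4.13 and then at 3.91 and 4.23 (−0.20 ± 0.34, adjusted p = 0.757; −0.06 without replicate 1). In controls this probe set went from 4.14 to 6.65, and the difference between treatments did not pass (adjusted p = 0.371). The other cxcl12a probe set lay at 2.90 and 3.10 and then at 3.83 and 3.54. Its change of 0.68 did not pass (adjusted p = 0.128; 0.59 without replicate 1).

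Of 21 retinoic acid genes 4 rose and none fell, and 2 without TCDD 6 hpa replicate 1. The retinoic acid binding protein gene crabp2a lay at 2.95 and 2.62 and then at 6.28 and 5.45 (3.08 ± 0.27, adjusted p = 0.000512), and crabp2b rose by 0.99 ± 0.18. The gene of the degrading enzyme cyp26b1 rose by 1.05 ± 0.25 in 1 of its 4 probe sets, and the fourth of the list was rbp4. The call of cyp26b1 was lost without TCDD 6 hpa replicate 1, TCDD 6 hpa replicate 2 or TCDD 7 dpa replicate 1 (adjusted p = 0.0844, 0.065 and 0.264), and that of crabp2b without TCDD 7 dpa replicate 1 (adjusted p = 0.127). None of 24 circadian clock genes was called in either fit; fbxl3a (−1.87, adjusted p = 0.0876) and cry-dash (0.79, adjusted p = 0.101) had the smallest p-values.

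None of 17 genes of the AHR and its targets rose or fell with all arrays (median −0.28, and −0.14 without TCDD 6 hpa replicate 1). With 6.81% called over all genes, 17 genes are too few to show that this list did not change. The level of cyp1a averaged 10.24 ± 1.21 at 6 hpa (SD, n = 2), with replicate 1 the lower at 9.38, and was 12.18 and 11.48 at 7 dpa, against 11.89 in unamputated TCDD ventricles and 3.56 in unamputated controls. Both 7 dpa arrays lay above both 6 hpa arrays, but the change of 1.59 ± 0.47 did not pass (adjusted p = 0.0924; 0.73 and adjusted p = 0.301 without replicate 1). The receptor gene ahr2 lay at 5.87 and 7.65 and then at 7.82 and 7.21, with overlapping groups. Its change was 0.75 with all arrays, −0.14 without replicate 1 and 1.64 without TCDD 6 hpa replicate 2. The target gene cyp1c1 did not pass either (2.72, adjusted p = 0.123, and 1.40 without replicate 1). Its other probe sets changed by −0.57 and 0.76. The target gene nqo1 (0.58, with 0.13 without replicate 1 and −0.30 without TCDD 7 dpa replicate 1) did not pass. Nor did the receptor's chaperone gene hsp90ab1 (1.1, adjusted p = 0.115, and 0.57 without replicate 1). The target gene tiparp (−0.56, with −1.29 without replicate 1 and 0.17 without replicate 2) did not pass with the deposited intensities. With quantile normalization its change was −1.08 and passed (limma adjusted p = 0.041).

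The last question was whether the change with time differed between TCDD fish and controls. Only 2 of 15502 probe sets passed this test (0.0129%), and 564 had an unadjusted p under 0.05. For ca2 the control levels were 3.24 and 3.01 at 6 hpa and 4.65 and 4.91 at 7 dpa, a rise of 1.66 against 5.96 in TCDD fish. The difference was 4.30 ± 0.31 (adjusted p = 0.00395; 4.14 and adjusted p = 0.0192 without TCDD 6 hpa replicate 1), and it passed without each of the other arrays of the groups compared. Its 2 arrays of TCDD 7 dpa stood above those of every other group.

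The other gene, dnase1l4.1, encodes a protein of the deoxyribonuclease I family. It lay at 5.75 and 5.67 at TCDD 6 hpa, at 2.72 and 2.94 at TCDD 7 dpa and at 2.75 to 3.07 on the control arrays of both times, with 2.90 in unamputated TCDD ventricles. It was thus high in TCDD fish at 6 hpa and near the median of an array in the others, and it fell by 2.87 ± 0.18 in TCDD fish (adjusted p = 9.01e-05; −2.84 without replicate 1). The difference between treatments was −2.72 ± 0.26 (adjusted p = 0.0221). That call was lost without TCDD 6 hpa replicate 1 (adjusted p = 0.101), TCDD 7 dpa replicate 1 (adjusted p = 0.0785), control 6 hpa replicate 1 (adjusted p = 0.131) or control 6 hpa replicate 2 (adjusted p = 0.108), and with quantile normalization (adjusted p = 0.129) or array weights (adjusted p = 0.156). The number of probe sets that passed was 1 without TCDD 6 hpa replicate 1 and 265 without TCDD 6 hpa replicate 2, so a count this low does not show that the treatments acted alike.

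**Figure D5:**
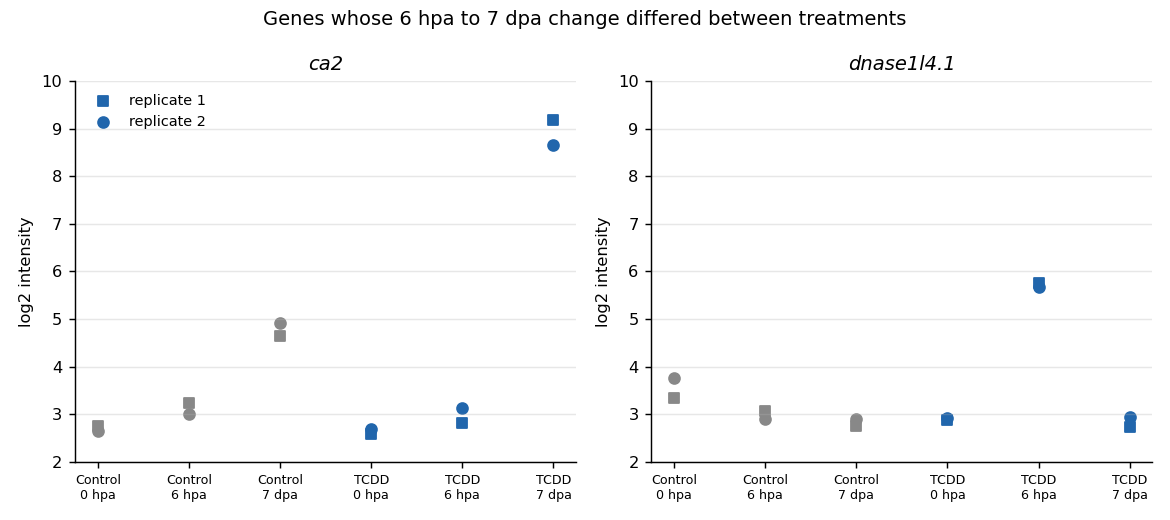
Log2 intensity (y axis) of ca2 and dnase1l4.1 on each of the 12 arrays, controls in grey and TCDD fish in blue, squares for replicate 1 and circles for replicate 2. For ca2 the TCDD 7 dpa arrays (9.19 and 8.65) lie above all others, and for dnase1l4.1 the TCDD 6 hpa arrays (5.75 and 5.67) do.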

How the data were processed

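Affymetrix arrays of 12 RNA pools, 2 for each of 6 groups, were analysed; groups and replicate numbers come from the sample titles. Per the submitters' processing notes RMA made the deposited intensities, 1 per probe set and array; the sources used here do not name the software or say whether the arrays were normalized as 1 set. The deposited intensity values are on a linear scale, and log2 was taken first. The authors' own tables of group comparisons were not used.

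The 115 Affymetrix controls among 15617 probe sets were not tested. Platform annotation with symbols updated through RefSeq gave 1 gene symbol to 10795 probe sets, several to 135 and none to 4572; 8793 genes had a probe set. There are no detection calls and no filter on dim values. A model of 6 group means was fitted to all 12 arrays with limma 3.58.1 (lmFit, eBayes) in R 4.3.3, with 6 residual degrees of freedom and 2.87 from the moderation (5 and 3.26 without TCDD 6 hpa replicate 1). Benjamini-Hochberg adjustment ran over all 15502 probe sets, with a threshold of 0.05. The median standard error was 0.243, and the number of arrays limits the precision. With 2 arrays a group, the smallest p of an exact permutation test is 0.333. On simulated data for this comparison over 15502 probe sets, 53 of 67 changes of 2 log2 units, 63 of 67 of 3 and 65 of 66 of 4 were recovered, with 6 false calls. The simulated noise was normal and independent between probe sets, and no array stood apart. It therefore does not show how many calls on these arrays are false or missed.

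The comparison and the 37 gene lists were chosen with earlier results of these data known. Named genes are the 14 rises and 14 falls with the largest change among probe sets with 1 symbol, clone names skipped, that passed with and without TCDD 6 hpa replicate 1 and whose groups did not overlap; up to 4 further passing members of each list, or the 2 with the smallest p; the genes whose change differed between treatments; and 26 fixed genes, of which tcf21 and nppa had no named probe set. Markers of cell types were named as well. Alternatives were other normalizations, filters, moderation, array weights, the 4 arrays alone, 1 probe set per gene, a limit on the change, added intensity, a replicate block and each array left out; 3 were added after seeing the data.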

Additional observations from a re-analysis of the deposited data

Results flagged for a closer look

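The change of ca2 from 6 hpa to 7 dpa was larger in TCDD fish than in controls by 4.30 ± 0.31 log2 units, and that of dnase1l4.1 differed by −2.72 ± 0.26, in limma's test of the difference itself over 15502 probe sets (adjusted p = 0.00395 and 0.0221). For ca2 the TCDD arrays rose to 9.19 and 8.65 and the control arrays to 4.65 and 4.91. For dnase1l4.1 both TCDD 6 hpa arrays were high and the control arrays were not, and this call was lost when TCDD 6 hpa replicate 1 was left out (adjusted p = 0.101), and also with quantile normalization, array weights, the replicate block and the crossed block (adjusted p = 0.129, 0.156, 0.0578 and 0.0802) and without TCDD 7 dpa replicate 1 or either control 6 hpa array (adjusted p = 0.0785, 0.131 and 0.108). With TCDD 6 hpa replicate 1 left out and each array centred on its median, the difference for ca2 was 4.14 (adjusted p = 0.0661), and that for dnase1l4.1 was −2.68 (adjusted p = 0.197).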

How the results depend on the processing

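The number of rises, 670, became 258 with array weights and 122 with the 4 TCDD arrays alone; leaving out 1 array gave 211 to 1661. The number of falls, 211, became 400 with quantile normalization, 53 with array weights and 26 with the 4 arrays alone. Leaving out 1 array gave 40 to 1341. With 1 probe set per gene there were 120 falls, but among 8793 probe sets tested in place of 15502, so the counts are not alike. In 3 alternatives added after seeing the data, there were 291 rises and 131 falls without TCDD 6 hpa replicate 1 and with each array centred on its median, 391 rises without it and with the others quantile normalized, and 640 rises and 213 falls with the replicate numbers crossed. The 2 probe sets that differed between treatments became 1 with quantile normalization, 4 with trend and robust moderation, 1 with array weights, 1 to 265 on leaving out 1 array, 0 without TCDD 6 hpa replicate 1 and with centring (where limma left ca2 at adjusted p = 0.0661), 1 without it and with quantile normalization, and 1 with the crossed block.

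The replicate number as a block gave 698 rises, 216 falls and 1 difference between treatments, that of ca2. The labels give the numbers no shared source. The deviations of equal numbers correlated at −0.345 between TCDD 6 hpa and TCDD 7 dpa, and at −0.378 to 0.563 over all pairs of groups (0.563 between control and TCDD at 7 dpa), so the arrays compared in time were not treated as paired.

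No call of a named gene turned its sign in any alternative run. Of 101 calls, of which 28 had to hold without TCDD 6 hpa replicate 1 to be chosen, 94 were kept with quantile normalization, 92 with centring, 54 with array weights, 41 with the 4 arrays alone and 95 with the block. Some genes that were not called turned. On leaving out 1 array ahr2 ran from −0.14 (without TCDD 6 hpa replicate 1) to 1.64, tiparp from −1.29 to 0.17 (without TCDD 6 hpa replicate 2), mmp9 from −2.33 to 0.50 (without TCDD 6 hpa replicate 2) and nqo1 from −0.30 (without TCDD 7 dpa replicate 1) to 1.45. Without TCDD 6 hpa replicate 1, ahr2 was −0.10 with centring and −0.19 with quantile normalization, where nqo1 was −0.02. The cause was not tested. With centring the median change of all probe sets was 0.09, against −0.04 as deposited. With 2 arrays per group and no detection calls, small changes and those of dim probe sets are beyond these data.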

Other observations

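The genes of this section were chosen after their values were seen, from the lists above. The first 4 belong to the epidermis list, of which 20 of 37 rose. The E-cadherin gene cdh1, of adherens junctions, lay at 2.89 and 2.76 at 6 hpa and at 7.80 and 6.76 at 7 dpa (4.46 ± 0.55, limma adjusted p = 0.00265; 4.52 without TCDD 6 hpa replicate 1). The desmosome gene dspa, for desmoplakin, went from 3.48 and 3.8 to 7.34 and 6.42 (3.24 ± 0.30), and the claudin gene cldnb, of tight junctions, from 3.01 and 3.07 to 7.09 and 7.21 (4.11 ± 0.68). The calcium-binding protein gene icn2 went from 2.84 and 3.00 to 7.48 and 7.70 (4.67 ± 0.48). Of the fixed epidermal markers the claudin gene cldne (0.70, adjusted p = 0.0628) and the adhesion gene epcam (3.99, adjusted p = 0.101) did not pass. The call of cldnb was lost without TCDD 7 dpa replicate 1 (adjusted p = 0.0768) and without TCDD 7 dpa replicate 2 (adjusted p = 0.055). The changes of cdh1, dspa, cldnb and icn2 in controls were 1.41, 0.93, 0.62 and 0.88, and the test of a difference between treatments did not pass for any of them (adjusted p = 0.972, 0.371, 0.998 and 0.371).

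A further 3 belong to the erythrocyte list, of which 9 of 32 fell. The gene lmo2, whose product forms a complex with that of tal1, lay at 5.69 and 6.19 and then at 3.75 and 3.30 (−2.42 ± 0.40, limma adjusted p = 0.0112; −2.67 without TCDD 6 hpa replicate 1), with 3.61 in unamputated TCDD ventricles. The erythroid and megakaryocytic factor gene nfe2 lay at 5.42 and 5.53 and then at 3.35 and 4.05 (−1.78 ± 0.32). The gene klf1, an activator of globin genes, lay at 6.72 and 7.34 and then at 4.40 and 4.62 (−2.52 ± 0.55), and lost its call without any 1 of the 4 arrays (adjusted p = 0.0524 to 0.192; −2.83 without TCDD 6 hpa replicate 1). Without TCDD 7 dpa replicate 1 the calls of lmo2 and nfe2 were lost (adjusted p = 0.0576 and 0.115), and without TCDD 7 dpa replicate 2 that of lmo2 (adjusted p = 0.0673). In controls lmo2, nfe2 and klf1 changed by −2.09, −1.69 and −3.18.

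In the matrix, decorin, dcn, lay at 4.49 and 4.43 and then at 8.73 and 8.59 (4.20 ± 0.20, limma adjusted p = 5e-05; 4.23 without TCDD 6 hpa replicate 1), and the crosslinking transglutaminase gene tgm2b at 4.05 on both 6 hpa arrays and at 7.60 and 7.63 at 7 dpa (3.57 ± 0.30). Both lay above the unamputated TCDD levels of 6.10 and 5.12 at 7 dpa and below them at 6 hpa.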
